A study of Mus musculus with 6 samples.

Results

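The CD300 receptors, the TREM receptors and their adaptor DAP12 were examined in resting bone-marrow-derived macrophages (BMDMs). The members were the 10 genes *Cd300a*, *Cd300lb*, *Cd300ld*, *Cd300lf*, *Cd300e*, *Trem1*, *Trem2*, *Trem3*, *Treml4* and *Tyrobp*, chosen by gene symbol, and all 10 are among the 22248 genes listed. RNA was measured by RNAseq in 6 libraries, 3 of the control genotype Lyz2cre and 3 of the CITED2-deficient genotype Cited2 fl/fl:Lyz2cre, all on the C57BL/6 strain. Both genotypes carry Cre recombinase in the *Lyz2* locus, so the control shares the Cre allele, and loss of *Cited2* is limited to cells in which this locus is or was active. The bone marrow cells were grown with macrophage colony-stimulating factor and were left unstimulated. The sample labels give an age of 10 postnatal weeks, whereas the methods of the study give a younger age for the marrow donors. No source states that the libraries of a group came from separate mice or cultures, so the p-values measure the spread between these libraries, which may be technical.

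The CD300 and TREM proteins are single-pass membrane receptors with an immunoglobulin-like domain, found mainly on myeloid cells. Inhibitory members such as CD300A and CD300LF have a long cytoplasmic tail with ITIMs, short tyrosine motifs that recruit the phosphatases SHP-1 and SHP-2. Activating members have a short tail and borrow an ITAM, a paired tyrosine motif that recruits the kinase SYK, from DAP12 (encoded by *Tyrobp*) or from the Fc receptor gamma chain. Several of these receptors bind lipids that are exposed on dying cells, and TREM2 with DAP12 is known for lipid handling by tissue macrophages.

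The values are FPKM, fragments per kilobase of transcript scaled to library size, and are therefore levels per length. Orders, shares and ratios between genes rest on the annotated transcript lengths, which may differ from those of the transcripts expressed. Levels of single libraries are listed in the order of replicates 1, 2 and 3. A difference is given as the log2 fold change of FPKM + 1, CITED2-deficient minus control, from limma, and a gene was called when its Benjamini-Hochberg adjusted p over all 11687 tested genes was under 0.05. Of these genes 51.3% were called, 16.7% higher and 34.6% lower, and 59.9% had groups that did not overlap. Over the tested genes the log2 fold change had a median of -0.10. After median-ratio scaling, in which a library is divided by the median of its ratios to each gene's geometric mean, that median was -0.01 and 23.1% of genes were called higher and 21.3% lower. Small differences are therefore also given after this scaling. The depth recovered from the FPKM was 17289286 to 18952077 fragments in control and 22583995 to 26100410 fragments in CITED2-deficient libraries. *Cited2* had 75.5 ± 3.79 FPKM (SD, n = 3) in control and 8.01 ± 1.10 FPKM (SD, n = 3) in CITED2-deficient BMDMs, with a log2 fold change of -3.09 (SE 0.08, limma adjusted p = 6.57e-09).

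The macrophage identity of the cultures was checked with 8 marker genes, whose summed level was 5513 to 5569 FPKM in control and 5136 to 5238 FPKM in CITED2-deficient libraries. Of these 8 markers, 1 was called higher and 5 lower. *Lyz2*, one of them and the locus that carries Cre, had 31.3 ± 1.03 FPKM in control and 9.75 ± 0.333 FPKM in CITED2-deficient BMDMs (SD, n = 3 each). Markers of other cells also differed in level between the genotypes. The 7 fibroblast markers summed to 42.0 to 50.1 FPKM in control libraries and to 539, 170 and 171 FPKM in CITED2-deficient replicate 1, 2 and 3, so replicate 1 stood apart, and all 6 of them that were tested were called higher. The summed classical monocyte markers had 211 to 226 and 160 to 177 FPKM, with 4 of 5 called higher and 1 lower, and the nonclassical monocyte markers had 20.1 to 20.6 and 27.7 to 28.8 FPKM, with 2 of 4 tested genes called higher and 1 lower. The neutrophil and precursor markers overlapped between the groups, at 730 to 798 and 667 to 786 FPKM, with 3 of 9 tested genes called higher and 5 lower. The summed platelet and megakaryocyte markers had 315 to 344 and 79.2 to 90.8 FPKM, with 2 of 4 tested genes called higher and 1 lower. The osteoclast markers had 54.4 to 56.8 FPKM in control and at least 66.2 FPKM in CITED2-deficient libraries. Of the 3 osteoclast markers tested, 1 was called higher and 1 lower. The sums of the dendritic, mast cell, B cell and T and NK cell lists were at most 3.18 FPKM in any library. In these bulk samples, fewer cells of a type and less RNA per cell cannot be told apart, and the part of these cell types in the results was not tested. Without CITED2-deficient replicate 1, all 6 member genes called in the comparison of 3 with 3 libraries were still called. CITED2-deficient replicates 2 and 3 still had fibroblast marker sums of 170 and 171 FPKM, so this omission does not test the part of fibroblasts.

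Of the members, 5 lie in the *Cd300* cluster on chromosome 11 and 4 in the *Trem* cluster on chromosome 17, while *Tyrobp* lies alone on chromosome 7. RefSeq promoters (GRCm38.p6, 250 bases before to 50 after the RefSeq start of the gene) were matched for 8 of the 10 members. They were searched on both strands for the interferon-response type motif, GAGGAAGT, the type bound by the myeloid factor PU.1, and TGACTCA, the AP-1 site, and the matches found did not overlap. GAGGAAGT was present in 2 of the 8 member promoters, those of *Cd300ld* and *Cd300lf*, and in 3.2% of all 32851 promoters of the same length. The interferon-response type motif and TGACTCA, present in 3.44% and 5.2% of all promoters, were matched in none of the 8, which says only that these letters are not in these windows. The promoters of *Cd300ld* and *Cd300lf*, the members that were higher in CITED2-deficient BMDMs, are shown 5′ to 3′ on the strand of the gene, with the match in capitals, beside those of *Cd300a* and *Cd300e*, the CD300 members that were lower.
*Cd300ld* promoter, chr11:114989837-114990136, minus strand: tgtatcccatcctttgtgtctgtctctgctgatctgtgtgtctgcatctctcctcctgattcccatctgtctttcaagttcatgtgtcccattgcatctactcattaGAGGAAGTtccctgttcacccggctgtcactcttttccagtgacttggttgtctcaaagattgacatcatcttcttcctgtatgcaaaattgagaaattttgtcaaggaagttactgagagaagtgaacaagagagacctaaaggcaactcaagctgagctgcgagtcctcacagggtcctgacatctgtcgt
*Cd300lf* promoter, chr11:115133943-115134242, minus strand: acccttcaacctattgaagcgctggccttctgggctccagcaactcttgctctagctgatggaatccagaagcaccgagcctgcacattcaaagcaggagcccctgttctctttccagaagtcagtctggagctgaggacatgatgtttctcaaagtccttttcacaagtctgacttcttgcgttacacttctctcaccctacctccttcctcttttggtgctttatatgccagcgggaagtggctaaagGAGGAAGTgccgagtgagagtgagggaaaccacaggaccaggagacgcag
*Cd300a* promoter, chr11:114889791-114890090, plus strand: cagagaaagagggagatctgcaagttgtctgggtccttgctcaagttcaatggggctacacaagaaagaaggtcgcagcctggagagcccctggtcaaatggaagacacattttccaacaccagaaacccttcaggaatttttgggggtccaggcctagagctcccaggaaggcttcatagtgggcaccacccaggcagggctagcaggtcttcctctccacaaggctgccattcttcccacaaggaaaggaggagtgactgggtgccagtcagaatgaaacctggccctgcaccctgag
*Cd300e* promoter, chr11:115061990-115062289, minus strand: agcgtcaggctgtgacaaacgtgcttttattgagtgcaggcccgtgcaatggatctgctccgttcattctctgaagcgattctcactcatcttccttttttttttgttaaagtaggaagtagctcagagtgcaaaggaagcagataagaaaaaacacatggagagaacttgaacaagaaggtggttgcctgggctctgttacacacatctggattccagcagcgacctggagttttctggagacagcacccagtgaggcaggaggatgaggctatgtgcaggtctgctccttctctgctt
In *Cd300ld* the match spans bases 108 to 115 of the 300 shown. In *Cd300lf* it spans bases 251 to 258, the first of which is the RefSeq start. For *Cd300ld* and *Cd300e* the RefSeq start lies inside the gene coordinates given below, so these windows hold fewer bases upstream of the gene. A match describes the letters only and is neither a binding site nor a cause.

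Of the 10 members, 8 reached a mean of 1 FPKM over the 6 libraries and were tested, while *Trem1* and *Treml4* did not. Of the tested members, 2 were called higher (*Cd300lf* and *Cd300ld*), 4 lower (*Cd300e*, *Cd300a*, *Tyrobp* and *Trem2*) and 2 were not called (*Cd300lb* and *Trem3*). The share called, 6 of 8, stands beside 51.3% of all tested genes, and the median log2 fold change of the 8 was -0.19. The same 6 genes had groups that did not overlap, beside 59.9% of all tested genes, and the libraries of *Cd300lb* and *Trem3* overlapped. After median-ratio scaling 3 of the 8 were called higher and 3 lower, because the small fall of *Trem2* was no longer called and *Cd300lb* was called higher.

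**Figure D1:**
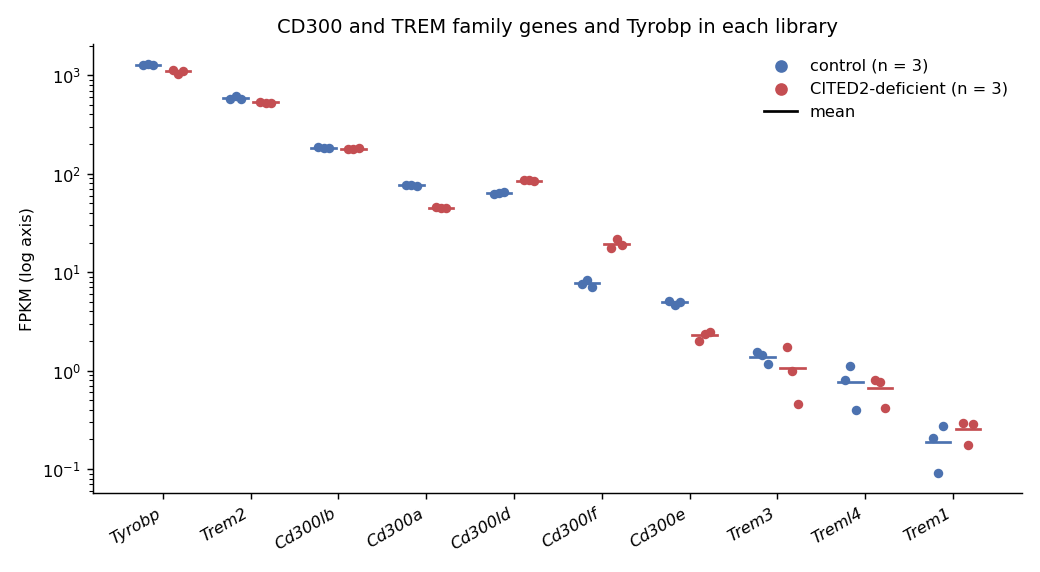
FPKM (log axis) of the 10 members in each of the 6 libraries, ordered by control mean, with points for libraries and bars for group means (n = 3 each). Levels ran from 1285 FPKM for Tyrobp to 0.19 FPKM for Trem1 in control BMDMs, and Cd300a and Cd300ld exchanged places between the genotypes.

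In control BMDMs the order of mean levels was *Tyrobp*, *Trem2*, *Cd300lb*, *Cd300a*, *Cd300ld*, *Cd300lf*, *Cd300e*, *Trem3*, *Treml4* and *Trem1*, and the ranges of neighbors in this order did not overlap. *Tyrobp* had the 49th highest mean level of all tested genes over the 6 libraries, *Trem2* the 138th and *Cd300lb* the 581st. In CITED2-deficient BMDMs *Cd300ld* lay above *Cd300a* in all 3 libraries, the reverse of the order in all 3 control libraries. The ranges of *Trem3* and *Treml4* overlapped in CITED2-deficient BMDMs, so these neighbors did not differ beyond their spread there.

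The inhibitory CD300 receptors moved in opposite directions. *Cd300a* (ENSMUSG00000034652, chr11:114890041-114904654, plus strand, mm10), which encodes an ITIM receptor for phosphatidylserine and phosphatidylethanolamine, had 76.9, 76.9 and 74.3 FPKM in the control libraries and 45.7, 44.7 and 45.4 FPKM in the CITED2-deficient libraries. Every CITED2-deficient library was below every control library, and the spread within each group was small. The means were 76.0 ± 1.51 and 45.3 ± 0.496 FPKM (SD, n = 3 each), a 1.68-fold lower level. The log2 fold change was -0.74 (SE 0.03, 95% interval -0.81 to -0.66, limma adjusted p = 2.28e-07), and -0.63 after median-ratio scaling.

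*Cd300lf* (ENSMUSG00000047798, chr11:115116214-115133992, minus strand), which encodes an ITIM receptor for ceramide and the entry receptor for murine norovirus, had 7.62, 8.40 and 7.01 FPKM in the control libraries. In the CITED2-deficient libraries it had 17.7, 21.6 and 18.7 FPKM. All CITED2-deficient libraries were above all control libraries, with a wider spread among them than among the controls. The means were 7.68 ± 0.699 and 19.3 ± 1.99 FPKM (SD, n = 3 each), a 2.52-fold higher level. The log2 fold change was 1.23 (SE 0.09, 95% interval 1.03 to 1.42, limma adjusted p = 4.17e-06), the largest rise among the 8 tested members and the 308th largest of all tested genes. This level rested on 213 to 233 recovered fragments per control library and 723 to 783 per CITED2-deficient library. *Rab37*, on the opposite strand across *Cd300lf*, had a mean of 0.414 FPKM in control and 0.495 FPKM in CITED2-deficient libraries, under the level needed for the test. The libraries were stranded, but the use of strand in counting was not stated, so reads of genes that overlap cannot be assigned with certainty.

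The activating CD300 receptors did not share a direction. *Cd300ld* (ENSMUSG00000034641, chr11:114982274-114989922, minus strand), whose product signals through the Fc receptor gamma chain, had 62.8, 63.6 and 65.0 FPKM in the control libraries. It had 85.6, 86.4 and 84.2 FPKM in the CITED2-deficient libraries, all above the controls. The means were 63.8 ± 1.13 and 85.4 ± 1.10 FPKM (SD, n = 3 each), a 1.34-fold higher level, and the log2 fold change was 0.41 (SE 0.03, 95% interval 0.34 to 0.49, limma adjusted p = 7.38e-06).

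*Cd300e* (ENSMUSG00000048498, chr11:115051917-115062177, minus strand), a DAP12-coupled receptor known from monocytes, had 5.144, 4.681 and 5.004 FPKM in the control libraries. In the CITED2-deficient libraries it had 2.02, 2.33 and 2.48 FPKM. The groups did not overlap, and the level was 2.17-fold lower. The means were 4.94 ± 0.237 and 2.28 ± 0.236 FPKM (SD, n = 3 each), and the log2 fold change was -0.86 (SE 0.10, 95% interval -1.08 to -0.64, limma adjusted p = 8.82e-05). This was the largest fall among the tested members on this scale, and limma-voom on the recovered fragments, which adds no constant of 1 FPKM, gave -1.12. Beside it, the nonclassical monocyte marker sum was higher in the CITED2-deficient libraries and the classical monocyte marker sum was lower, and their part in the result was not tested.

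*Cd300lb* (ENSMUSG00000063193, chr11:114922781-114934386, minus strand), whose DAP12-coupled product takes part in the uptake of dying cells, was the most abundant CD300 member. It had 184.9, 181.4 and 183.2 FPKM in the control libraries and 180.3, 177.5 and 182.7 FPKM in the CITED2-deficient libraries, and the groups overlapped. The log2 fold change was -0.02 (95% interval -0.09 to 0.04, limma adjusted p = 0.488). After median-ratio scaling the sign turned, to 0.079 with a limma adjusted p of 0.0425, so no direction can be given that holds under both scalings. *Gm11699*, which overlaps *Cd300lb* on the opposite strand, had a log2 fold change of 0.15 and was not called.

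**Figure D2:**
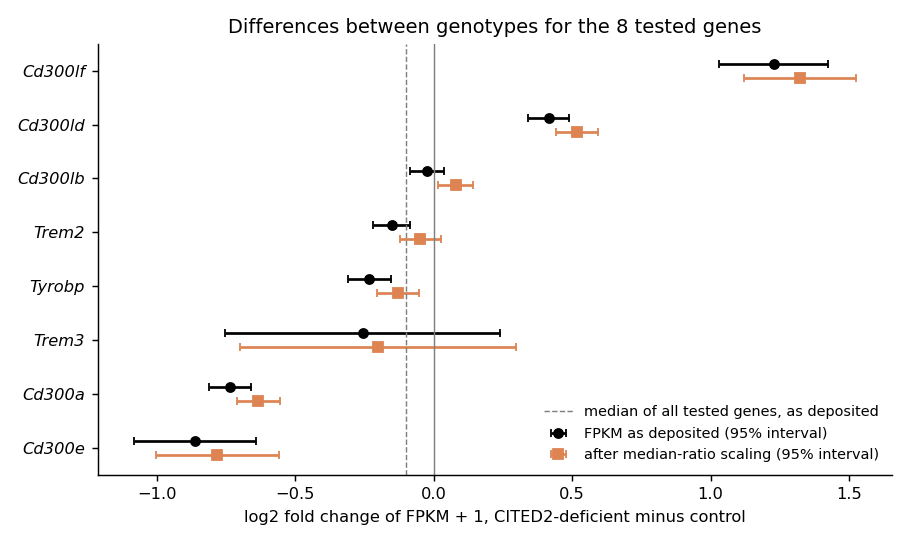
Log2 fold change of FPKM + 1 (CITED2-deficient minus control, 3 libraries each) with 95% intervals for the 8 tested members, on the deposited FPKM (circles) and after median-ratio scaling (squares). Cd300lf at 1.23 and Cd300e at -0.86 mark the ends, and the dashed line is the median of all tested genes, -0.10.

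On the deposited FPKM, the summed level of the 5 CD300 members was close in all libraries, while its composition differed between the genotypes. The sum was 334 to 337 FPKM in control and 331 to 333 FPKM in CITED2-deficient libraries. *Cd300a* made up 22.8, 23.0 and 22.2% of this sum in control BMDMs and 13.8, 13.5 and 13.6% in CITED2-deficient BMDMs, with no overlap. *Cd300ld* made up 18.6 to 19.4% in control and 25.2 to 26.0% in CITED2-deficient libraries. The share of *Cd300lf* was 2.10 to 2.51% and 5.36 to 6.49%, and that of *Cd300lb* was 54.2 to 54.8% and 53.4 to 54.8%. The ratio of *Cd300a* to *Cd300lf*, the pair of inhibitory receptors, was 10.1, 9.15 and 10.6 in control BMDMs and 2.58, 2.07 and 2.43 in CITED2-deficient BMDMs. The sum depends on the scaling between libraries, so its closeness is stated for the deposited FPKM only. Shares and ratios within a library do not depend on that scaling. They were given no test, since the smallest exact permutation p for groups of 3 is 0.1.

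**Figure D3:**
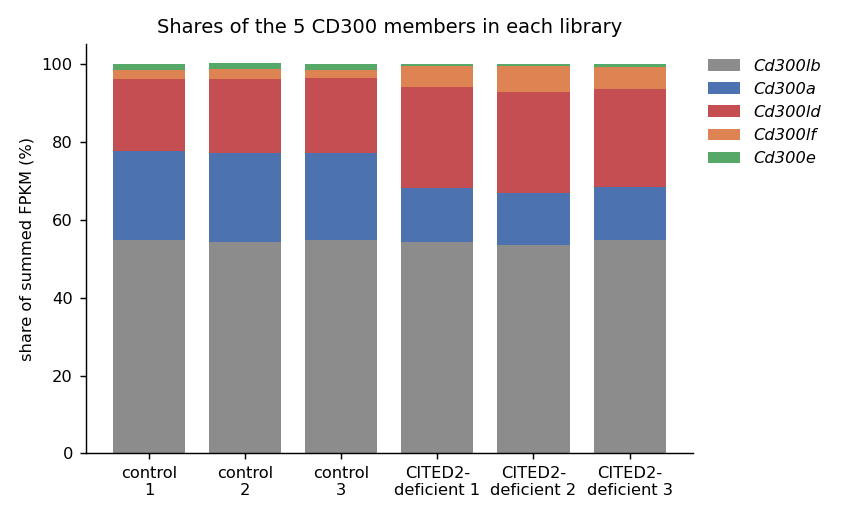
Share of the summed FPKM of the 5 CD300 members (%, stacked bars from 0) in each library. Cd300a takes 22.2 to 23.0% in control and 13.5 to 13.8% in CITED2-deficient libraries, with the reverse order for Cd300ld and Cd300lf.

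The TREM receptors were represented almost entirely by *Trem2*. *Trem2* (ENSMUSG00000023992, chr17:48346401-48354147, plus strand), which encodes a receptor for lipids and lipoproteins, had 577, 611 and 581 FPKM in the control libraries and 539, 526 and 527 FPKM in the CITED2-deficient libraries. Each CITED2-deficient library was below each control library, by a small margin. The means were 589.8 ± 18.5 and 531 ± 6.93 FPKM (SD, n = 3 each), and the log2 fold change was -0.15 (SE 0.03, 95% interval -0.22 to -0.08, limma adjusted p = 0.00243). After median-ratio scaling it was -0.05 (limma adjusted p = 0.27) and after quantile normalization -0.07 (limma adjusted p = 0.0545), so the call depended on the scaling.

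*Trem1*, *Trem3* and *Treml4* were near the limit of detection. *Trem1* (ENSMUSG00000042265, chr17:48232768-48246924, plus strand), an amplifier of inflammatory responses on neutrophils and monocytes, had 10, 4 and 13 recovered fragments in control BMDMs and 19, 10 and 19 in CITED2-deficient BMDMs. These are 0.209, 0.0913 and 0.271 FPKM and 0.295, 0.175 and 0.287 FPKM, and the groups overlapped. *Treml4* (ENSMUSG00000051682, chr17:48264295-48275360, plus strand), whose product binds late apoptotic and necrotic cells, had 0.797, 1.12 and 0.398 FPKM in control and 0.805, 0.763 and 0.412 FPKM in CITED2-deficient libraries, from 7 to 19 fragments. When all 22248 genes were tested without a filter, the limma adjusted p was 0.532 for *Trem1* and 0.788 for *Treml4*, and a difference was not detectable at this depth.

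*Trem3* (ENSMUSG00000041754, chr17:48247777-48258841, plus strand), a DAP12-coupled receptor that is functional in mice, had 1.54, 1.46 and 1.17 FPKM in the control libraries. In the CITED2-deficient libraries it had 1.74, 0.980 and 0.463 FPKM, a range that enclosed the controls. The log2 fold change was -0.26 (95% interval -0.75 to 0.24, limma adjusted p = 0.356) on 12 to 44 fragments per library.

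The adaptor gene *Tyrobp* (ENSMUSG00000030579, chr7:30413760-30417585, plus strand) had 1280, 1291 and 1284 FPKM in the control libraries and 1134, 1037 and 1112 FPKM in the CITED2-deficient libraries. The groups did not overlap, and the CITED2-deficient libraries were the more spread. The means were 1285 ± 5.55 and 1094 ± 50.4 FPKM (SD, n = 3 each). The log2 fold change was -0.23 (SE 0.03, 95% interval -0.31 to -0.15, limma adjusted p = 0.000473), and -0.13 after median-ratio scaling (limma adjusted p = 0.0136). The level of *Trem2* as a share of that of *Tyrobp* was 45.1, 47.3 and 45.3% in control BMDMs and 47.5, 50.7 and 47.4% in CITED2-deficient BMDMs. The lowest CITED2-deficient share lay just above the highest control share. *Hcst*, which encodes the related adaptor DAP10 and lies on the opposite strand with its 3′ end 127 bases to the right of *Tyrobp*, had a log2 fold change of -0.44 (limma adjusted p = 0.000443), and *Alkbh6*, the nearest tested gene on the left, -0.39.

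The relatives of the members in both clusters were described next, from a list of 15 genes of which 11 are listed and 7 were tested. Among these, 3 were called higher, 2 lower and 2 were not called, with a median log2 fold change of 0.05, and after median-ratio scaling 3 were higher and 0 lower. *Treml2*, a TREM-like receptor of macrophages, neutrophils and B cells, had 3.30, 2.60 and 2.45 FPKM in the control libraries and 20.4, 19.8 and 22.1 FPKM in the CITED2-deficient libraries. All CITED2-deficient libraries were far above the controls, and the log2 fold change of 2.53 (SE 0.09, limma adjusted p = 5.45e-08) was the 45th largest rise of all tested genes. Beside it, the neutrophil marker sum overlapped between the groups, although 3 of the 9 tested markers were called higher and 5 lower. The B cell markers summed to 2.10 to 3.00 FPKM in control and 1.74 to 2.61 FPKM in CITED2-deficient libraries. *Treml1*, best known from platelets, had a log2 fold change of -0.33 (limma adjusted p = 0.0164) and was not called after median-ratio scaling or without control replicate 3 or CITED2-deficient replicate 2. Of the platelet markers, *Pf4* had 319.7 ± 15.1 FPKM in control and 75.4 ± 4.58 FPKM in CITED2-deficient libraries (SD, n = 3 each), which accounts for the lower sum of that list. *Itga2b* and *Ppbp* were called higher and *Gp1ba* was not called, and the part of platelet RNA in this result was not tested.

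Among the CD300 relatives, *Cd300ld3* had a log2 fold change of 0.31 (limma adjusted p = 0.00435) and *Cd300ld5* of 0.60 (limma adjusted p = 0.039). The call of *Cd300ld5* was lost when control replicate 2, control replicate 3, CITED2-deficient replicate 1 or CITED2-deficient replicate 3 was left out. *Cd300c2* had 227 ± 4.95 and 214 ± 3.73 FPKM (SD, n = 3 each). Its log2 fold change of -0.08 (limma adjusted p = 0.0401) was 0.02 and not called after median-ratio scaling, and not called when any library but CITED2-deficient replicate 3 was left out. *Cd300ld2* at 0.05 and *Cd300ld4* at -0.32 were not called, although *Cd300ld4* was called without control replicate 3 or CITED2-deficient replicate 2. *Cd300c*, *Cd300lg*, *Fcmr* and *Ncr1* were under the filter. The annotated transcripts of *Cd300ld5*, *Cd300ld4* and *Cd300ld3* share 100%, 93.8% and 82.1% of their 50-base windows with other genes, so reads cannot be assigned with certainty among them, and their values are uncertain. For *Cd300ld*, *Cd300a* and *Cd300lf* the shared portion was 3.89%, 3.18% and 2.29%, and it was 0 for the other 7 members.

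**Figure D4:**
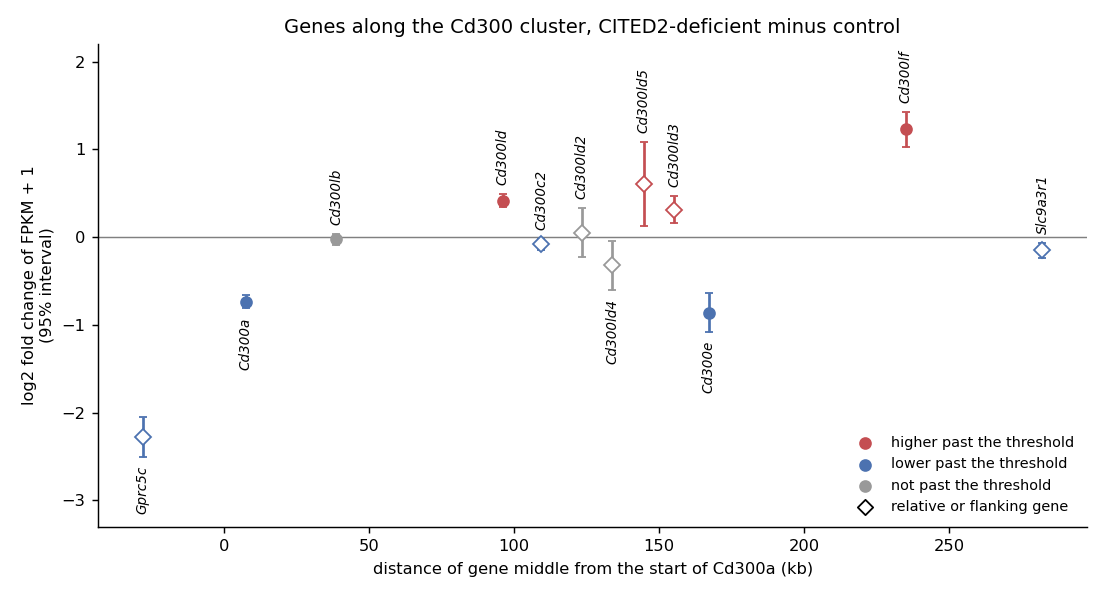
Log2 fold change of FPKM + 1 with 95% intervals (CITED2-deficient minus control, 3 libraries each) against distance from the start of Cd300a (kb). Shown are the tested CD300 genes of the Cd300 cluster and the nearest tested gene on each side. Genes called higher, called lower and not called are all present along the cluster, with Cd300a at -0.74, Cd300ld at 0.41, Cd300e at -0.86 and Cd300lf at 1.23.

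Neighboring genes in the *Cd300* cluster differed in direction. The cluster holds 11 listed CD300 genes within 244.0 kb. From *Cd300a* at one end to *Cd300lf* at the other the called members were lower, higher, lower and higher. The flanking gene *Gprc5c*, an orphan G protein-coupled receptor gene 17424 bases to the left, had 22.0 ± 0.345 FPKM in control and 3.77 ± 0.715 FPKM (SD, n = 3 each) in CITED2-deficient BMDMs, with a log2 fold change of -2.28 (SE 0.10, limma adjusted p = 1.56e-07). *Slc9a3r1*, to the right, had a log2 fold change of -0.15 and was not called after median-ratio scaling. Beside the *Trem* cluster, *A530064D06Rik* at 0.05 and *Nfya* at 0.03 were not called, although *Nfya* was called higher, at 0.13, after median-ratio scaling.

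Other receptors that couple to DAP12 were then compared with the members. Of 12 such genes 7 were tested, and 4 were called higher, 2 lower and 1 not called, with a median log2 fold change of 0.41, and after median-ratio scaling 5 were higher and 0 lower. The 3 SIRP-beta genes of the list, whose products are activating receptors of myeloid cells, rose. Shared transcript sequence was examined only for the members and their relatives. The assignment of reads among the SIRP-beta genes, and between *Pilrb1* and *Pilrb2*, was therefore not checked. *Sirpb1c* had 18.9, 17.6 and 20.5 FPKM in the control libraries and 54.1, 51.8 and 53.8 FPKM in the CITED2-deficient libraries, with a log2 fold change of 1.44 (SE 0.06, limma adjusted p = 7.11e-08). *Sirpb1a* had a log2 fold change of 1.49 (limma adjusted p = 9.26e-07), *Sirpb1b* of 1.07 (limma adjusted p = 6.6e-06) and *Cd200r4* of 0.26 (limma adjusted p = 0.00215). *Pilrb1* at -0.26 (limma adjusted p = 0.0342) and *Pilrb2* at -0.24 (limma adjusted p = 0.0424) were called lower, but neither was called after median-ratio scaling. *Pilrb1* was also not called when control replicate 2, control replicate 3, CITED2-deficient replicate 1 or CITED2-deficient replicate 3 was left out. For *Pilrb2* this held for control replicate 1, control replicate 2, CITED2-deficient replicate 1 and CITED2-deficient replicate 3. *Clec5a* had a log2 fold change of 0.41 (limma adjusted p = 0.0613) and was called without control replicate 1 and after median-ratio scaling. *Klrk1*, *Klrd1*, *Siglech*, *Siglec15* and *Cd200r3* were under the filter. Among them *Klrk1*, which encodes the receptor NKG2D, had 0.213, 0.0998 and 0.121 FPKM in control BMDMs and 1.22, 1.58 and 1.28 FPKM in CITED2-deficient BMDMs, from 3 to 7 and 54 to 62 fragments. Without the filter its log2 fold change was 1.04 (limma adjusted p = 0.000322), and the T and NK cell marker sum beside it was 0.603 to 0.877 and 0.554 to 0.879 FPKM. *Klrd1*, with no fragment in any control library and 2, 4 and 7 in CITED2-deficient libraries, was also called higher without the filter (limma adjusted p = 0.0259), and the other 3 were not.

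Of 35 tested genes for ITAM and ITIM signalling, 11 were called higher, 13 lower and 11 were not called, with a median of -0.08. After median-ratio scaling 15 were higher and 6 lower. The largest rises were those of *Cblb*, an E3 ubiquitin ligase that limits tyrosine kinase signalling, with a log2 fold change of 0.75, the kinase gene *Src* at 0.57, and *Pik3ap1*, the BCAP adaptor of phosphoinositide 3-kinase, at 0.52. The largest falls were those of *Dok2*, an adaptor that dampens tyrosine kinase signals, at -1.05, *Pik3cg*, the catalytic subunit of phosphoinositide 3-kinase gamma, at -0.94, and the phospholipase gene *Plcg1* at -0.56. *Dok2* had 121 ± 1.84 and 58.0 ± 2.53 FPKM (SD, n = 3 each), so that its level in control BMDMs was above that of *Cd300a*. These 6 calls were kept under median-ratio scaling and without each library in turn.

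Of 9 tested genes for ligands, sheddases and partners of these receptors, 3 were called higher and 4 lower, with a median of -0.17, and after median-ratio scaling 3 were higher and 2 lower. *Adam17*, which encodes a protease that sheds TREM2, had a log2 fold change of 0.23, and *Il4ra*, whose product associates with CD300LF, of -0.39. *Hmgb1*, a proposed TREM1 ligand gene, had -0.49, and these calls were kept under median-ratio scaling and without each library. *Pglyrp1*, a TREM1 ligand gene, at 0.29, *Lgals3*, a TREM2 ligand gene, at 0.14 and *Mmp9* at -0.24 were also called, with limma adjusted p of 0.0176, 0.0176 and 0.0408. *Pglyrp1* was not called when control replicate 2, control replicate 3 or CITED2-deficient replicate 1 was left out. The same held for *Lgals3* with control replicate 1, control replicate 3 or CITED2-deficient replicate 3, and for *Mmp9* with control replicate 1, control replicate 2, CITED2-deficient replicate 1 or CITED2-deficient replicate 3. *Mmp9* was also not called after median-ratio scaling.

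Of 19 tested lipid-associated macrophage genes, a group known from TREM2 biology, 12 were called higher and 4 lower, with a median of 0.17 beside -0.10 for all tested genes. After median-ratio scaling 14 were higher and 3 lower. *Axl*, a receptor for phosphatidylserine-bound GAS6, had 67.2 ± 2.67 FPKM in control and 144 ± 4.85 FPKM (SD, n = 3 each) in CITED2-deficient BMDMs, which gave a log2 fold change of 1.09. *Clec7a*, the beta-glucan receptor Dectin-1, had 0.77 and *Plin2*, a lipid droplet coat gene, 0.62. The largest falls were those of the lipoprotein lipase gene *Lpl* at -0.30, the fatty acid transporter gene *Cd36* at -0.30 and the lysosomal membrane gene *Cd63* at -0.26. These 6 calls were kept under median-ratio scaling and without each library, and they stand beside the small, scaling-dependent difference of *Trem2* itself.

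**Figure D5:**
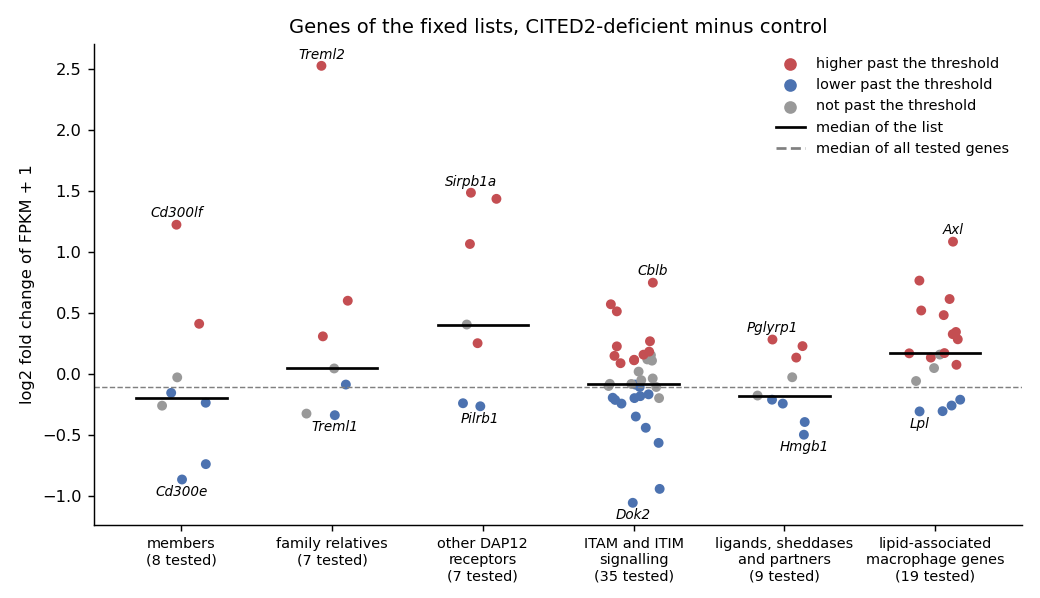
Log2 fold change of FPKM + 1 (CITED2-deficient minus control) of each tested member and of each tested gene of the 5 lists, with list medians (black bars) and the median of all tested genes (dashed line, -0.10). Treml2 at 2.53 and Sirpb1a at 1.49 lie above Cd300lf at 1.23, and Dok2 at -1.05 lies below Cd300e at -0.86.

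The tested genes outside the families whose log2(FPKM + 1) followed *Cd300lf* most closely over the 6 libraries were *Syne1*, *Csk* and *Cd84*, with Pearson correlations of 0.99956, 0.99882 and 0.99857. Among those closest to *Cd300e* were *Adk* and *Ahrr*, at 0.99882 and 0.99860. Correlations over 0.99 were found for 166 and 161 genes, and the points share the division into 2 groups of 3 libraries, so these values are a description.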

How the data were processed

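RNA of BMDMs was sequenced by the authors from stranded, rRNA-depleted libraries. Per the labels, the reads were mapped to mm10 with STAR and quantified with Cufflinks and Cuffdiff. Their versions: not given in the sources used here. The authors deposited FPKM per gene and library, with replicates not pooled.

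Fragments were recovered as FPKM times the mean GENCODE vM21 transcript length and deviated by at most 0.02 from a whole number in every library for 21374 of 22239 matched genes (96.1%). The test used limma (version 3.58.1, R version 4.3.3) with its variance trend, on log2(FPKM + 1) of the genes that averaged 1 FPKM or more, a step that was also tested on simulated data. This scale understates the change of low genes. The Cuffdiff test, which reads alignments, was not rerun.

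The members and lists were chosen with earlier results of these data known. Named genes are all members, *Cited2*, all genes of lists with up to 8 tested genes, otherwise the 3 largest called rises and falls, the flanking and overlapping genes, and the 3 genes most like the members with the largest rise and fall. *Apoe* and *Lgals3* are in 2 lists. A result under this rule is not reported here. Promoters came from RefSeq (GRCm38.p6), and figures were drawn with matplotlib 3.10.9. Other settings tried were pseudocounts of 0.1 and 0.5, filters at 0 and 5 FPKM, scaling by quantiles or median ratios, a fit without the trend, weighted libraries, a replicate block, omission of single libraries, limma-voom on recovered fragments and a minimum fold change of 2. Leaving out libraries was added for the lists after the data had been seen.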

Additional observations from a re-analysis of the deposited data

How the results depend on the processing

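There were 6 calls among the members, 2 higher and 4 lower. Only the added threshold of a fold change of at least 2 in FPKM + 1 changed their number by more than 1.5 times. It removes calls by construction and left 1 call, *Cd300lf*, 1 higher and 0 lower. *Cd300e*, at -0.86 on this scale, was removed, although its FPKM was 2.17-fold lower and limma-voom gave -1.12. That threshold left 6 of the 56 called genes of the 5 lists. Leaving out each library in turn gave 6 member calls each time, and 44 to 51 list genes. The log2 fold changes of *Cd300a* (-0.75 to -0.63), *Cd300e* (-1.12 to -0.78), *Cd300ld* (0.40 to 0.52), *Cd300lf* (1.15 to 1.33) and *Tyrobp* (-0.26 to -0.13) kept their direction and call in the other alternatives in which the gene was tested, and *Cd300e* had no value with a mean FPKM of at least 5. *Trem2* was not called after quantile normalization (-0.07) or median-ratio scaling (-0.05). *Cd300lb* turned from -0.02 to 0.079 under median-ratio scaling and was then called, where each library is divided by a factor that moves the median of all genes from -0.10 to -0.01. Of all tested genes 1950 were called higher and 4044 lower, against 2696 and 2490 after that scaling. The log2 fold change of *Trem3* ran from -0.58 to -0.03 without a call. The replicate numbers of the titles showed no visible pairing of the libraries. Deviations from the group means correlated at 0.0138, 0.00784 and 0.0402 between libraries of the same number. Not every library correlated best with its own number. With 3 libraries per group, these values cannot decide whether the libraries were paired by design. The replicate block gave 6 member calls, 51 list calls and 5708 calls over all genes against 5994 without it. Depth limits the statements on *Trem1*, *Trem3* and *Treml4*, which had 4 to 44 fragments per library.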
